A study of Mus musculus with 8 samples.

Results

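The D cyclins, their kinase partners, the retinoblastoma protein and the inhibitors of these kinases form the switch that commits a cell to divide. Ccnd1, Ccnd2 and Ccnd3 encode D cyclins, which bind and activate the kinases encoded by Cdk4 and Cdk6. The active kinases phosphorylate the retinoblastoma protein, product of Rb1, which then releases E2F transcription factors. Cdkn2c encodes p18, an inhibitor of the INK4 class that binds Cdk4 and Cdk6 directly. Cdkn1a, Cdkn1b and Cdkn1c encode p21, p27 and p57 of the CIP/KIP class, which bind complexes of cyclins and kinases.

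The 10 genes were taken by symbol, with every probe set whose only symbol was that of a member. All 10 were measured, by 22 of the 22626 probe sets tested. They were chosen by their roles, but with the difference of Ccnd2 between transgenic and wild type samples in these data already known. Their differences in that comparison are therefore given as a description, and the calls below only mark where each probe set stood in the fit across all probe sets.

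Ventral prostates of FVB mice aged 20 weeks were compared, 4 transgenic samples with mouse prostatic intraepithelial neoplasia and 4 wild type samples with normal tissue. Per the series design the lesions follow overexpression of p110 beta in an active form, p110 beta being one of the catalytic subunits of PI3-kinase. The promoter that drives it is not given in the sources used here, and no probe set used was named for its gene. The labels do not state whether the arrays are from different animals, so the spread between them may be partly technical.

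Values are log2 RMA values from Affymetrix arrays, 1 array per sample, and array medians lay between 5.40 and 5.51. Values near or below those medians can be set by background. Levels of different probe sets are not compared with each other. A log2 fold change is the transgenic mean minus the wild type mean, given with its standard error from limma, and a probe set was called where its Benjamini-Hochberg adjusted p over all probe sets was under 0.05.

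Of the marker genes of prostate epithelium, Spink1, Hoxb13 and Pbsn were measured and lay far above the array medians, while all 6 markers of seminal vesicle epithelium lay below them. All 3 prostate markers had log2 fold changes below 0, and Pbsn, which encodes probasin, was called lower, at -1.28 ± 0.22 (SE, n = 4 each; limma adjusted p = 0.00361). Markers of cell types differed between the groups too. Of 8 luminal markers 5 were called higher in transgenic samples and 3, Krt18, Krt19 and Foxa1, were not called, and of 8 basal markers 4 were called lower, with a mean log2 level of the basal list from 5.02 to 5.16 on transgenic arrays and from 5.57 to 5.70 on wild type arrays. All 10 smooth muscle and all 10 fibroblast markers had log2 fold changes below 0, and 2 of each were called. A stromal score, the mean of the gene-centred values of both lists, was -0.45, -0.27, -0.19 and -0.21 on transgenic arrays 1 to 4, against -0.16, 0.86, 0.29 and 0.13 on wild type arrays 1 to 4 (exact permutation p = 0.0286, two-sided, the smallest 8 arrays can give; 0.0571 adjusted over 2 array measures). Wild type array 2 had the highest score. For the control probe sets of Gapdh and beta actin, the log2 value at the 3 prime end minus that at the 5 prime end, a sign of RNA integrity, averaged 1.12 ± 0.19 on transgenic and 1.47 ± 0.09 on wild type arrays (SD, n = 4 each; exact permutation p = 0.0571, two-sided).

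Ccnd2 and Cdkn2c were lower in transgenic prostates, and the other 8 genes had no probe set past the threshold. Of the 22 probe sets, 8 were called lower, 0 were called higher and 14 were not called. No probe set with a positive fold change had an unadjusted p under 0.05 in limma, and 12 with a negative one did. Those 12 were all 7 of Ccnd2, all 3 of Ccnd1 and the single ones of Rb1 and Cdkn2c. The share of all probe sets at that p was not counted, so nothing is read from these counts. The 8 called lower were all 7 probe sets of Ccnd2 and the single probe set of Cdkn2c. Over all 22626 probe sets, 9.84% were called, with 4.36% lower and 5.48% higher. Because Ccnd2 was known to be lower when the set was assembled, nothing is read from the share of the members. Groups did not overlap for 10 of the 22 probe sets, of which 7 were those of Ccnd2. Outside Ccnd2 it was 3 of 15, near the 15.0% of all probe sets, and 2 of these 3 were of Ccnd1. The median log2 fold change was -0.31 over the 22 and -0.18 over the 15 outside Ccnd2, against -0.03 over all probe sets.

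**Figure D1:**
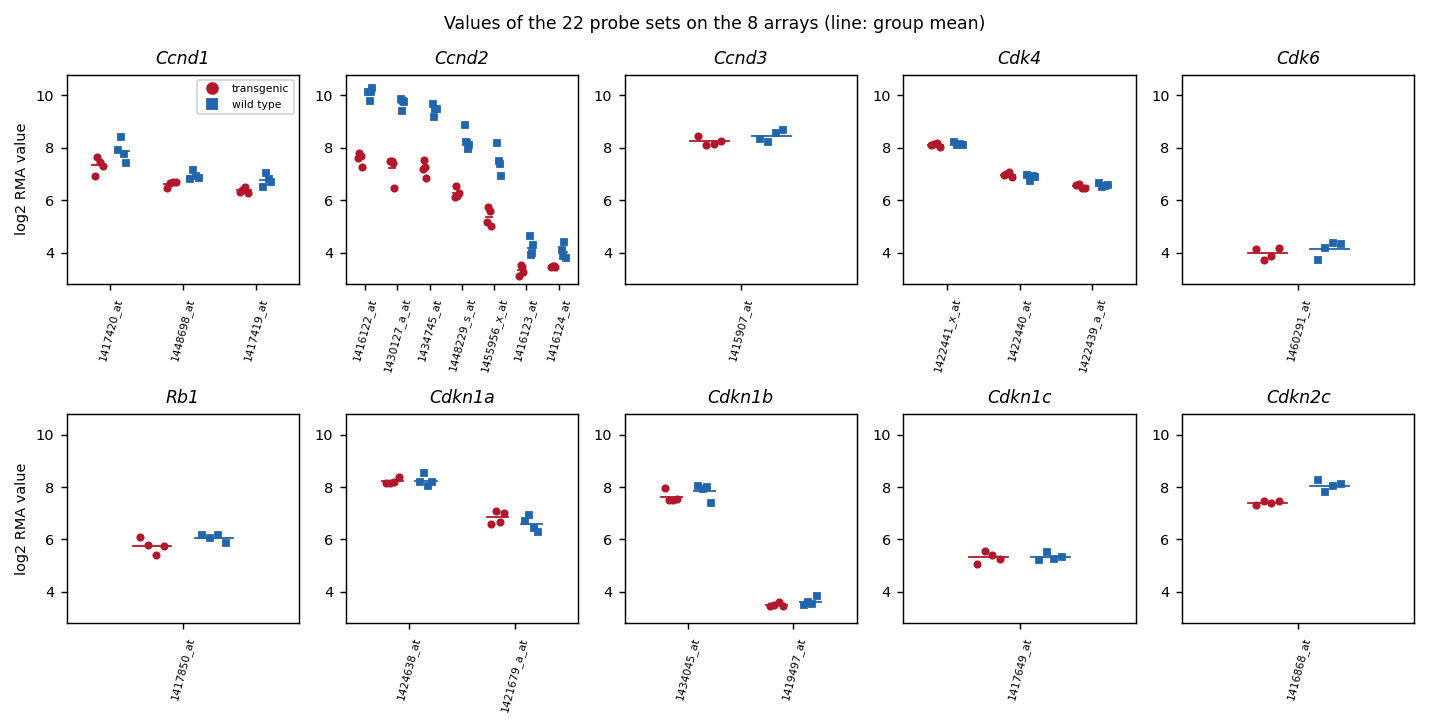
Log2 RMA values of each of the 22 probe sets (x axis, grouped by gene) on the 4 transgenic arrays (red circles) and the 4 wild type arrays (blue squares), with lines at the group means. The groups are apart for all 7 Ccnd2 probe sets and for Cdkn2c, and lie on top of each other for Cdk4.

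Ccnd2, which encodes cyclin D2, had the largest differences of the 10 genes. Its brightest probe set, 1416122_at, read 7.63, 7.81, 7.70 and 7.28 on transgenic arrays 1 to 4, against 10.13, 9.77, 10.12 and 10.30 on wild type arrays 1 to 4. The highest transgenic array was thus 1.96 below the lowest wild type array on the log2 scale. The log2 fold change was -2.48 ± 0.14 (SE, n = 4 each), or 5.57-fold more signal in wild type.

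The other Ccnd2 probe sets ran the same way. Probe set 1430127_a_at read 7.51, 7.49, 7.41 and 6.46 on transgenic arrays 1 to 4, against 9.87, 9.41, 9.79 and 9.76 on wild type arrays 1 to 4, a log2 fold change of -2.49 ± 0.22 (SE). Transgenic array 4 was lower than the other 3 there, and without it the log2 fold change was -2.24. Probe set 1434745_at read between 6.83 and 7.52 on transgenic arrays and between 9.18 and 9.68 on wild type arrays, at -2.27 ± 0.15. The gap between the groups was 1.90 for the first and 1.66 for the second.

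Probe sets 1448229_s_at and 1455956_x_at, whose IDs carry the maker's marks for probes that can match several transcripts, gave -2.02 ± 0.18 and -2.12 ± 0.24 (SE). The 5 brighter probe sets thus lay between -2.49 and -2.02, though the transgenic mean of 1455956_x_at, 5.37, lay below every array median. The remaining pair was dim in both groups. Probe set 1416123_at averaged 3.33 ± 0.19 on transgenic and 4.19 ± 0.34 on wild type arrays, and 1416124_at averaged 3.46 ± 0.03 on transgenic and 4.02 ± 0.28 on wild type arrays (SD, n = 4 each). Their log2 fold changes, -0.86 and -0.57, were the smallest of the 7 in size, and the means of both groups lay below the median of every array.

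The difference of Ccnd2 was as large with the stromal score as a covariate, at -2.72 ± 0.19 (SE) for 1416122_at, and 6 of the 7 probe sets remained called. The exception was the dim 1416124_at (adjusted p = 0.111 in limma), which was also not called without transgenic array 4 (adjusted p = 0.0537). Every transgenic array had a lower score than every wild type array. The part of the score in the Ccnd2 difference therefore cannot be told apart from that of the group, and was not tested. Of 8 basal markers 4 were also called lower in transgenic samples, while Krt17 and Ngfr were near 0, at -0.002 and -0.03. Of the 8, 5 lay below every array median in both groups. The part of the basal markers in the Ccnd2 result was not tested. In whole tissue, fewer cells that express a gene and less RNA of it per cell cannot be told apart.

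Ccnd1, which encodes cyclin D1, had log2 fold changes below 0 on all 3 of its probe sets, and none was called. Probe set 1417420_at, the brightest, read 6.94, 7.65, 7.45 and 7.32 on transgenic arrays 1 to 4, against 7.91, 8.42, 7.76 and 7.41 on wild type arrays 1 to 4. The groups overlapped there through wild type array 4. The log2 fold change was -0.53 ± 0.21 (SE, n = 4 each).

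The dimmer pair of Ccnd1 probe sets had narrower groups that just failed to meet. Probe set 1417419_at read 6.33, 6.38, 6.49 and 6.28 on transgenic arrays 1 to 4, against 6.51, 7.05, 6.81 and 6.68 on wild type arrays 1 to 4, with a gap of 0.03 between the groups. For 1448698_at the gap was 0.14, with transgenic values from 6.48 to 6.68 and wild type values from 6.82 to 7.16. Their log2 fold changes were -0.39 ± 0.12 and -0.31 ± 0.11 (SE).

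The log2 fold changes of Ccnd1 were smaller in size with the stromal score in the fit. Wild type array 2, with the highest score, also had the highest value of each Ccnd1 probe set. With the score as a covariate the 3 log2 fold changes were -0.11 ± 0.25, -0.09 ± 0.13 and -0.11 ± 0.14 (SE), in the order 1417420_at, 1448698_at and 1417419_at. The score was lower on every transgenic array than on any wild type array. Its part in the Ccnd1 differences therefore cannot be told apart from that of the group, and was not tested. With array weights, 1448698_at and 1417419_at were called (adjusted p = 0.0448 and 0.0135 in limma), and 1417419_at was also called without wild type array 1 (adjusted p = 0.0232).

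Ccnd3, which encodes cyclin D3, was not called. Its single probe set read 8.47, 8.10, 8.16 and 8.25 on transgenic arrays 1 to 4, against 8.34, 8.23, 8.56 and 8.70 on wild type arrays 1 to 4. The groups overlapped and the log2 fold change was -0.21 ± 0.13 (SE, n = 4 each). Neither Ccnd1 nor Ccnd3 had a probe set with a log2 fold change above 0.

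**Figure D2:**
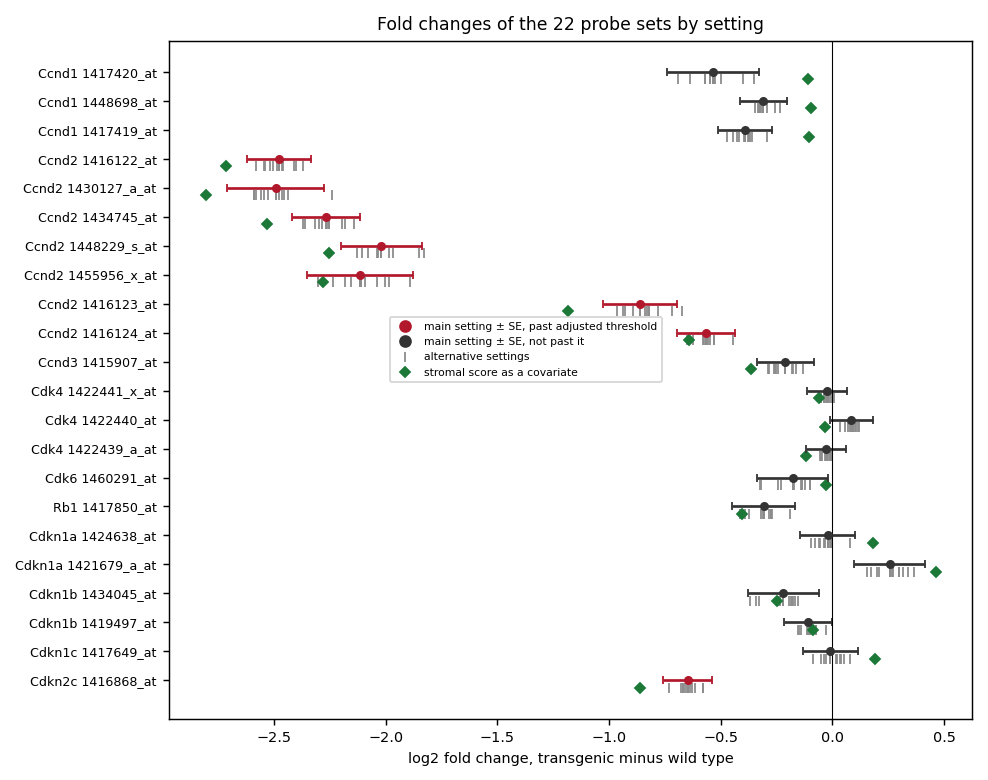
Log2 fold changes (x axis, transgenic minus wild type) of the 22 probe sets (rows), as circles with standard errors, red where called, with the values under other settings as grey ticks and those with the stromal score as a covariate as green diamonds. The 5 brighter Ccnd2 probe sets stay below -1.8 in every setting shown, while the Ccnd1 diamonds lie near 0.

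Cdk4, one of the kinases that the D cyclins activate, differed between the groups by less than the spread of the arrays. Its brightest probe set, 1422441_x_at, read 8.09, 8.15, 8.20 and 8.02 on transgenic arrays 1 to 4, against 8.21, 8.11, 8.15 and 8.09 on wild type arrays 1 to 4. The 3 log2 fold changes were -0.02 ± 0.09, 0.08 ± 0.10 and -0.03 ± 0.09 (SE, n = 4 each), and the groups overlapped for each. No other member had several probe sets that all lay so close to 0.

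The start of Cdk4 is shown because its window held more of the motifs searched than that of any other member. RefSeq windows of 250 bases before to 50 bases after a transcription start were at hand for 6 of the 10 genes, in 9 windows, on GRCm38.p6. They were searched on both strands for the fork head motifs TGTTTAC and TGTTTGC, the E2F motifs TTTCGCGC and TTTGGCGC, the E box CACGTG, which Myc and related factors can bind, and the cyclic AMP element TGACGTCA. No matches overlapped. The Cdk4 window, chr10:127063285-127063584 on the plus strand, holds CACGTG 4 times, from bases 79, 133, 153 and 240 of the window, where base 251 is the start site. Capitals mark the matches.
Cdk4: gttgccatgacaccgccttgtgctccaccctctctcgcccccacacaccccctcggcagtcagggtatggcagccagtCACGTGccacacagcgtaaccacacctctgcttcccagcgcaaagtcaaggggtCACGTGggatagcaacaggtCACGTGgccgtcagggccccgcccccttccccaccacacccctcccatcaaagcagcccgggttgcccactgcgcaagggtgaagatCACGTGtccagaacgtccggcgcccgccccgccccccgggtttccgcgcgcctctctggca
Of all 32851 windows, 7.15% hold CACGTG and 8 hold it 4 or more times. Myc, which encodes a factor that binds this motif, was not called in the list of regulators described below.

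Cdk6, the other kinase partner of the D cyclins, had only 1 probe set, which read 4.12, 3.73, 3.85 and 4.16 on transgenic arrays 1 to 4, against 3.71, 4.17, 4.38 and 4.32 on wild type arrays 1 to 4. These values lie below every array median, so a difference near background could be missed. The Cdk6 window holds 1 CACGTG match.

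Rb1, whose protein is the main substrate of these kinases, was not called. Its probe set read 6.08, 5.80, 5.41 and 5.76 on transgenic arrays 1 to 4, against 6.17, 6.06, 6.17 and 5.87 on wild type arrays 1 to 4. The groups overlapped through transgenic array 1, and the log2 fold change was -0.31 ± 0.14 (SE, n = 4 each).

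Cdkn2c, encoding the INK4 inhibitor p18, was the only inhibitor among the members with a called probe set. It read 7.32, 7.48, 7.38 and 7.48 on transgenic arrays 1 to 4, against 8.27, 7.82, 8.04 and 8.11 on wild type arrays 1 to 4. Every transgenic array lay below every wild type array, with a gap of 0.34. The log2 fold change was -0.65 ± 0.11 (SE, n = 4 each), or 1.57-fold more signal in wild type.

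Cdkn2c was called under every setting run on it, with log2 fold changes from -0.86 to -0.58. The lowest of these was with the stromal score as a covariate. Only 1 probe set measured the gene, so no second probe set can be set beside it.

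RefSeq gives Cdkn2c a pair of start windows. The upstream one, chr4:109666707-109667006 on the minus strand, held none of the motifs. The downstream one, chr4:109665323-109665622 on the minus strand, holds CACGTG once, from base 285, and is shown because Cdkn2c is the called gene for which a window was at hand. Capitals mark the match.
Cdkn2c: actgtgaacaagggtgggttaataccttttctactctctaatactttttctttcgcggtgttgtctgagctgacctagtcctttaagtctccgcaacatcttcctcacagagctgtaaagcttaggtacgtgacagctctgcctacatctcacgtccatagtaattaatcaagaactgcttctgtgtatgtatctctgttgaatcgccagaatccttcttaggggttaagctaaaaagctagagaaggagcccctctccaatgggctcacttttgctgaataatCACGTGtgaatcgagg
A match is a description of these letters and no evidence of binding. The Ccnd3 windows held 1 match of TGTTTAC, present in 3.65% of all windows, and those of Cdkn1a and Cdkn1b held none.

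The CIP/KIP inhibitors were not called. Cdkn1a, which encodes p21 and is induced by p53, read 8.16, 8.16, 8.19 and 8.39 on transgenic arrays 1 to 4 with probe set 1424638_at, against 8.21, 8.55, 8.03 and 8.20 on wild type arrays 1 to 4. That is a log2 fold change of -0.02 ± 0.12 (SE, n = 4 each). Its other probe set, 1421679_a_at, read 6.61, 7.10, 6.68 and 7.03 on transgenic arrays, against 6.72, 6.93, 6.45 and 6.29 on wild type arrays, at 0.26 ± 0.16. The groups overlapped for both.

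Cdkn1b encodes p27, whose protein is mostly controlled by its destruction. Probe set 1434045_at read 7.95, 7.50, 7.50 and 7.55 on transgenic arrays 1 to 4, against 7.94 to 8.03 on wild type arrays 1 to 3 and 7.40 on wild type array 4. One array of each group stood apart from its other 3, towards the level of the other group. The log2 fold change was -0.22 ± 0.16 (SE, n = 4 each), and it was -0.33 without transgenic array 1 and -0.37 without wild type array 4. The other Cdkn1b probe set, 1419497_at, lay below every array median in both groups, at -0.11 ± 0.11.

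Cdkn1c, encoding p57, read 5.06, 5.56, 5.40 and 5.24 on transgenic arrays 1 to 4, against 5.20, 5.51, 5.27 and 5.32 on wild type arrays 1 to 4. Both group means lay below every array median, and the log2 fold change was -0.01 ± 0.12 (SE, n = 4 each). Across the 14 probe sets that were not called, a missed threshold does not show that the levels were equal.

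The genes around this switch were taken from 5 lists, chosen with earlier results of these data known, with 1 probe set per gene. Of 63 measured genes 9 were called higher, 2 lower and 52 were not called, where 5.99% of all 12393 genes were called higher and 4.98% lower. Their median log2 fold change was 0.10, against -0.04 over all genes. Of the 9 higher genes 5 came from 1 list, the regulators of the synthesis or turnover of D cyclins and inhibitors, which had 5 higher and 0 lower of 14. At an unadjusted p under 0.05 in limma, 13 of the 63 genes were higher and 9 lower. The share of all genes at that p was not counted, so nothing is read from such counts in any of the 5 lists.

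Skp2, the subunit of the ubiquitin ligase that marks p27 for destruction, rose. Its brightest probe set read 6.88, 7.07, 7.08 and 7.33 on transgenic arrays 1 to 4, against 5.67, 5.65, 5.64 and 5.15 on wild type arrays 1 to 4. The groups were 1.21 apart, and the log2 fold change was 1.56 ± 0.14 (SE, n = 4 each; limma adjusted p = 3.24e-05). Of its 6 probe sets 5 were called higher, with all 6 between 0.36 and 1.56. Cks1b, which encodes the cofactor of Skp2 for p27, was not called, at -0.30 ± 0.14. No gene of the list was called lower in limma, and 2, Foxo1 and Cks1b, had an unadjusted p under 0.05 in that direction. With array weights, with quantile normalization and with the mean of a gene's probe sets, however, 1 gene of the list was called lower. Foxo1 encodes a fork head factor and was named, like Cks1b here, after its values were seen, at -0.31 ± 0.10.

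Klf4, a factor that can induce p21 and repress cyclin D1 in cultured cells, rose most in that list. It read 8.90, 9.26, 8.96 and 9.16 on transgenic arrays 1 to 4, against 5.91, 6.77, 6.37 and 6.28 on wild type arrays 1 to 4. The log2 fold change was 2.74 ± 0.16 (SE, n = 4 each; limma adjusted p = 1.94e-06), and the other Klf4 probe set gave 3.15. Smad4, the shared partner of the Smad factors of TGF-beta and BMP signalling, rose by 0.66 ± 0.11 (limma adjusted p = 0.00227), with 2 of 3 probe sets called.

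Foxo3 and Fbxo4, named after their values were seen, were also called higher, at 0.46 ± 0.13 and 0.51 ± 0.14 (SE, n = 4 each; limma adjusted p = 0.0445 and 0.0455). Foxo3 encodes a fork head factor that PI3-kinase signalling keeps out of the nucleus, and Fbxo4 a subunit of a ligase that marks cyclin D1 for destruction. With the stromal score in the fit the log2 fold changes were 0.32 ± 0.19 and 0.49 ± 0.22 (SE), and both calls were lost (adjusted p = 0.514 and 0.331). Both were also lost when any 1 of 6 arrays was left out, transgenic array 1, 2 or 3 or wild type array 2, 3 or 4 (adjusted p at most 0.137 and 0.141). Foxo3 was also not called with a trended robust prior (adjusted p = 0.0521). Without any 1 of those 6 arrays the list had 3 higher genes. It also had 3 with the score in the fit, with the mean of a gene's probe sets and at a threshold of 0.01. The groups overlapped for Foxo3 and were 0.02 apart for Fbxo4.

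**Figure D3:**
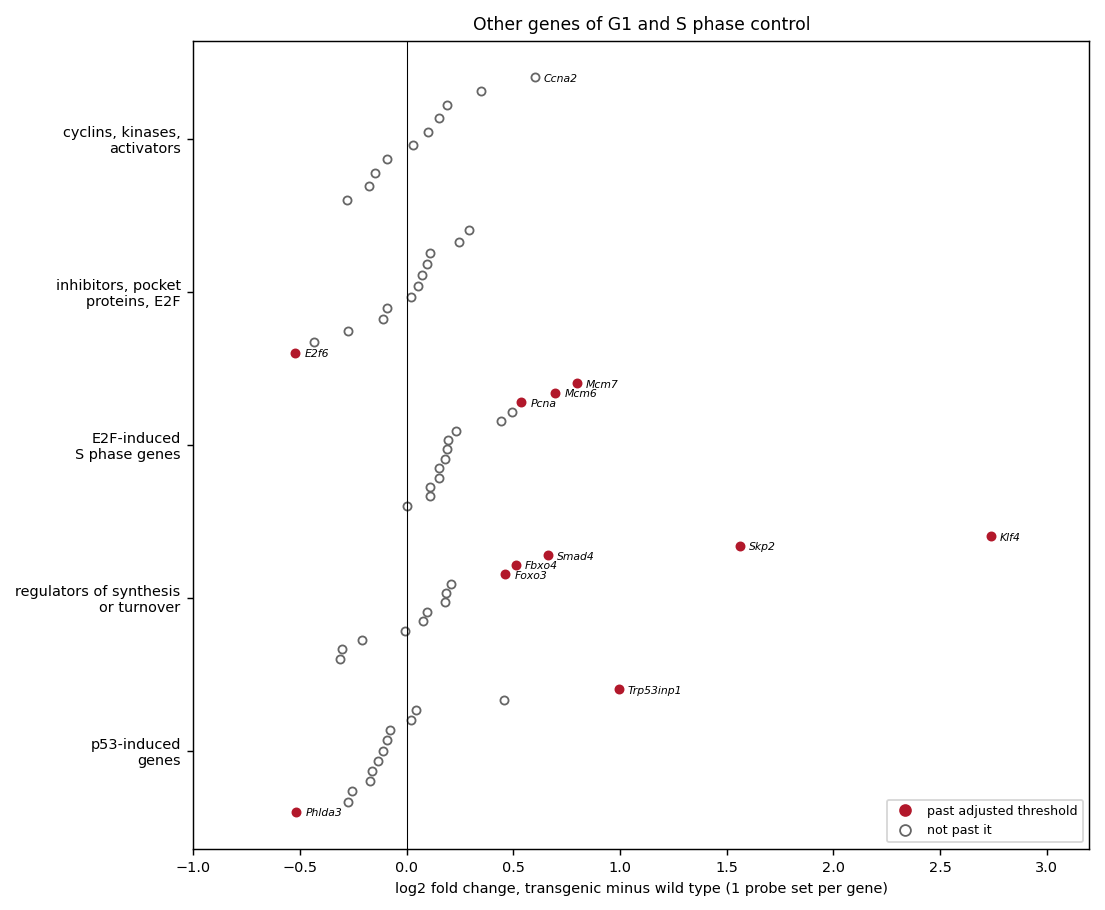
Log2 fold changes (x axis, transgenic minus wild type, 1 probe set per gene) of the 63 measured genes in 5 lists of G1 and S phase control (rows), filled where called. Klf4 and Skp2 lie farthest to the right, and all 14 E2F-induced S phase genes lie at or to the right of 0.

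Of 14 measured E2F-induced S phase genes, which provide the machinery of DNA replication, 3 rose, 0 fell and 11 were not called. Of all genes, 5.99% were called higher and 4.98% lower. The median log2 fold change of the list was 0.19 and all 14 values were above 0, though Tyms was at 0.003. The share of all genes above 0 was not counted. Mcm3, Mcm5, Cdc6, Tyms and Pola1 lay below every array median in both groups. Mcm7 and Mcm6, subunits of the replicative helicase, rose by 0.80 ± 0.17 and 0.70 ± 0.15, and Pcna, the sliding clamp, rose by 0.54 ± 0.14 (SE, n = 4 each; limma adjusted p = 0.0129, 0.0120 and 0.0313). Of 4 Mcm7 probe sets only the brightest was called, 1438320_s_at, whose ID carries a mark for probes that can match several transcripts. The others lay between 0.19 and 0.41. The wild type mean of Mcm6 lay below every array median. With the stromal score in the fit the log2 fold changes of Mcm7, Mcm6 and Pcna were 0.87 ± 0.26, 0.88 ± 0.21 and 0.63 ± 0.21 (SE), no smaller than without it, and with the larger standard errors 1 of the 3 was called, Mcm6. The Pcna call was lost when transgenic array 2 or 3 or wild type array 3 or 4 was left out (adjusted p at most 0.102).

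Of the 10 other cyclins, kinases and activators of G1 and S, 0 were called in limma, and 2, Ccna2 and Cdc25a, had an unadjusted p under 0.05. Cdc25a, which encodes a phosphatase that activates these kinases and was named after its values were seen, had a log2 fold change of -0.28 ± 0.11 (SE). Ccna2, encoding cyclin A2 and the one with the smaller p, read 6.10, 5.98, 6.20 and 6.41 on transgenic arrays 1 to 4, against 5.16, 5.48, 5.33 and 6.33 on wild type arrays 1 to 4. Wild type array 4 read as high as the transgenic arrays. The log2 fold change was 0.60 ± 0.22 (SE, n = 4 each; limma adjusted p = 0.120), and leaving out wild type array 4 made it 0.85, which was called (adjusted p = 0.00211). Array weights also gave a call, at 0.67 (adjusted p = 0.0173). The other Ccna2 probe set, 1417911_at, lay below every array median in both groups, at 0.06 ± 0.18 (SE; adjusted p = 0.902).

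Of 12 other inhibitors, pocket proteins and E2F factors 1 fell, E2f6, which encodes a repressive member of the E2F family. It averaged 6.87 ± 0.09 on transgenic and 7.39 ± 0.17 on wild type arrays (SD, n = 4 each) with no overlap, at -0.52 ± 0.11 (SE; limma adjusted p = 0.00936). With the stromal score in the fit the log2 fold change was -0.50 ± 0.16 (SE), about as large, and was not called (adjusted p = 0.144). The other INK4 genes, Cdkn2a, Cdkn2b and Cdkn2d, had log2 fold changes of -0.09, 0.29 and 0.06 and were not called.

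Of 13 p53-induced genes other than Cdkn1a, 1 rose, 1 fell and 11 were not called, with a median of -0.11. Trp53inp1 rose by 0.99 ± 0.10 (SE, n = 4 each; limma adjusted p = 0.000106). Its second probe set was not called, at 0.36. Phlda3, which encodes an inhibitor of Akt, fell by 0.52 (adjusted p = 0.0375) and was not called with the stromal score in the fit, at -0.22 (adjusted p = 0.666), with cyclic loess normalization (adjusted p = 0.0583), or when transgenic array 1, 2 or 3 or wild type array 2, 3 or 4 was left out (adjusted p at most 0.109).

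The genes with the profile most like that of Ccnd2 1416122_at over the 8 arrays were Mt2, Aass, Pik3c2g, Trpv6 and Cbs. Likeness was the root mean square difference of the values centred on each gene's mean, and it was 0.29, 0.32, 0.32, 0.39 and 0.42 on the log2 scale for these genes, against a median of 1.25 over 12392 genes. Mt2 encodes a metallothionein, Aass an enzyme of lysine breakdown, Pik3c2g a class II PI3-kinase, Trpv6 an epithelial calcium channel and Cbs the first enzyme of transsulfuration. The measure keeps the size of the change, so a gene without a difference between the groups also lies far from Ccnd2. A small value thus largely reflects a group difference of similar size and direction. The 5 genes were picked for this likeness, so their values are a description only. Mt2 read 9.26, 9.37, 9.21 and 9.26 on transgenic arrays 1 to 4, against 11.60, 10.95, 11.19 and 11.39 on wild type arrays 1 to 4, and the log2 fold changes of the 5 lay between -2.11 and -1.85. The transgenic mean of Aass, 5.18, lay below every array median.

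**Figure D4:**
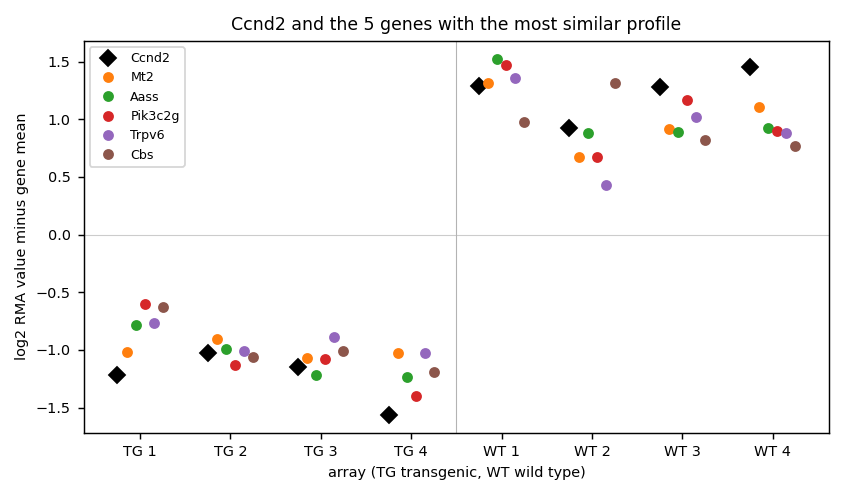
Log2 RMA values minus each gene's mean over the 8 arrays (y axis) of Ccnd2 (black diamonds) and the 5 genes with the most similar profile (coloured circles) on each array (x axis; TG transgenic, WT wild type). All 6 genes lie below 0 on the 4 transgenic arrays and above 0 on the 4 wild type arrays.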

How the data were processed

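Ventral prostate RNA of 4 transgenic and 4 wild type samples was measured on Affymetrix arrays. The deposited values are log2 expression, and the submitters' processing notes name RMA without a version. RMA corrects background, quantile normalizes the arrays and summarises probes, so a shift of all transcripts alike would be removed. Of 22690 probe sets 64 controls were left out. Names came from the platform annotation, updated by gene identifier through RefSeq (GRCm38.p6, names and start windows only): 20380 probe sets had 1 symbol, 691 several and 1555 none. Each of 12393 genes was represented by its brightest probe set.

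The fit covered all 22626 probe sets (limma 3.58.1 under R 4.3.3, functions lmFit and eBayes, Benjamini-Hochberg adjustment, threshold 0.05) and was tested on simulated data. The members and lists were chosen with earlier results of these data known. Named genes were all members, up to 3 called genes of each list by size of change (or the smallest p), and the 5 genes most like Ccnd2. Alternatives were quantile and cyclic loess normalization, leaving out the dimmest 40% of probe sets, a trended robust prior, array weights, the replicate number as a block, the stromal score as a covariate, leaving out each array, a threshold of 0.01, the mean of a gene's probe sets and leaving out probe sets marked as shared. The number of arrays limits the precision. No 2 arrays were copies (highest correlation 0.996).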

Additional observations from a re-analysis of the deposited data

Results flagged for a closer look

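In groups of 4 arrays, a value was singled out where its distance to the nearest other array exceeded Dixon's critical value as a share of the range of its group. This happened 8 times in 82 groups, or 9.76%, where chance gives about 1 in 20. Among the members, transgenic array 4 read 6.46 for Ccnd2 1430127_a_at, with the other transgenic arrays between 7.41 and 7.51, and 8.39 for Cdkn1a 1424638_at, with the others between 8.16 and 8.19. Transgenic array 1 read 6.48 for Ccnd1 1448698_at, with the others between 6.67 and 6.68. For Cdkn1b 1434045_at, transgenic array 1 read 7.95 (others 7.50 to 7.55) and wild type array 4 read 7.40 (others 7.94 to 8.03), and for the dim Cdkn1b 1419497_at transgenic array 3 read 3.62 (others 3.45 to 3.48). Outside the members, wild type array 4 read 5.15 for Skp2 (others 5.64 to 5.67) and wild type array 1 read 7.76 for Aass (others 7.12 to 7.16).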

How the results depend on the processing

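Of the member probe sets, 0 were called higher under any alternative, and between 7 and 9 were called lower when each array was left out. With array weights 10 were called lower, from 3 genes. Without the dimmest 40% of probe sets 6 were, as the dim Ccnd2 pair was not in that fit. The list counts moved more. Of the 63 other genes, the number higher was 9, and it was 13 with array weights, 5 with the stromal score as a covariate and 4 at a threshold of 0.01. The number lower was 2, and it was 4 with quantile normalization and with the mean of all probe sets, 1 with cyclic loess and at a threshold of 0.01, and 0 with the stromal score. Leaving out each array gave 6 to 11 higher and 1 to 2 lower, and the cause was not tested. Uncalled values near 0 changed sign: Cdkn1c read 0.04 with array weights, 0.033 with cyclic loess, 0.021 with quantile normalization and 0.19 with the stromal score, Cdkn1a 1424638_at 0.18 and Cdk4 1422440_at -0.032 with that score. Leaving out each array gave -0.089 to 0.077 for Cdkn1c, -0.096 to 0.079 for Cdkn1a 1424638_at and -0.052 to 0.008 for Cdk4 1422441_x_at. The labels do not say that the replicate numbers pair the samples. Same-numbered arrays deviated from their group means with correlations of -0.31, 0.24, -0.20 and 0.33. Values of mixed sign, with no other pairs beside them, cannot settle this. With the replicate block 8 member probe sets were lower, and 8 of the list genes were higher and 2 lower, with Foxo3 not called (adjusted p = 0.0591). Values below the array medians limit what can be seen for Cdk6, Cdkn1c and the dim probe sets of Ccnd2 and Cdkn1b.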
